A study of Mus musculus with 8 samples.

Results

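Splenic conventional dendritic cells of RAG2-/- mice were compared between the CD8α+ and the CD8α- sort. Each subset was read on 2 arrays, so the comparison uses 4 of the 8 arrays of the series, chosen by their titles, and the other 4 hold the same subsets of wild type mice. All mice were untreated C57BL/6 females, 10 weeks old per the labels and 8 to 10 weeks per the design text. The series asked how T and B lymphocytes bear on antigen presentation by these cells. Both knockout groups carry the RAG2 deletion. RAG2 is a recombinase protein that assembles antigen receptor genes, so these mice lack mature T and B cells while they keep natural killer cells, monocytes, macrophages and neutrophils. The labels do not say which gates besides CD8α were used, whether several mice were pooled, or whether the replicates are different animals. The p-values hence describe only the spread between arrays, which may be technical.

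Levels are log2 expression values of Affymetrix probe sets, where 1 unit is a doubling. A probe set is a group of short probes for a transcript. Of 34945 probe sets with 1 gene symbol, 13714 stood at log2 5 or more on at least 2 of the 4 knockout arrays and were tested. They covered 8397 genes, each described by its brightest tested probe set. A difference is the CD8α+ mean less the CD8α- mean on the log2 scale, and a number in parentheses after a gene's name is that difference. A gene is called at an adjusted p under 0.05 (limma, Benjamini-Hochberg). Where the lower group lay below 5 on both arrays, the fold is a lower bound, computed with that group set to log2 5. Values of a gene are given with the CD8α+ arrays first and replicate 1 before replicate 2.

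Dendritic cells take up, process and present antigen to T cells. In the mouse spleen, CD8α+ cells are the type 1 conventional lineage, which depends on the factors Irf8 and Batf3, takes up dying cells and presents their antigens on MHC class I. CD8α- cells are mainly the type 2 lineage, marked by Sirpa, dependent on Irf4, Relb and Notch2 and known for MHC class II presentation to CD4 T cells.

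The sorting marker separated the groups. Cd8a, the α chain of the coreceptor, stood at 12.31 and 12.51 on the CD8α+ arrays and 6.90 and 7.70 on the CD8α- arrays. Cd4, the other T cell coreceptor and a known surface marker of many CD8α- spleen dendritic cells, stood at 4.08 and 4.15 against 10.00 and 11.23. Neither pair overlapped. Rag1 was at the lowest value of the arrays on all 4 knockout arrays and Rag2 lay between 2.49 and 3.63 there and between 2.86 and 2.94 in wild type, so neither transcript checks the genotype. Over the tested probe sets the 2 CD8α+ arrays correlated at r = 0.969 and the 2 CD8α- arrays at 0.962, against 0.849 to 0.881 across subsets, where probe sets are not independent.

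The 4 knockout arrays were not equally clean. Neutrophil granule and receptor transcripts reached log2 5 for 8 of 11 measured genes on CD8α- replicate 2 and 6 of 11 on CD8α+ replicate 1, against 1 of 11 on each of the other two. Their summed log2 levels were 84.0, 65.7, 33.7 and 34.7 in the order CD8α- replicate 2, CD8α+ replicate 1, CD8α- replicate 1 and CD8α+ replicate 2. Ngp, a granule protein gene, stood at 10.18 and 4.24 on the CD8α+ arrays and 3.03 and 11.65 on the CD8α- arrays. CD8α- replicate 2 also held 8 of 11 natural killer cell markers at 5 or more, with a summed level of 76.7, against 3 or 4 genes and 50.7 to 54.9 on the other knockout arrays. It leaned towards the CD8α+ profile as well. Of the 844 genes called higher in CD8α+ cells 566 were higher there than on CD8α- replicate 1, against 346 of the 845 called lower. So were 15 of the 20 tested CD8α+ markers, although 12 of 18 CD8α- markers were also higher there. The median over the tested probe sets was 8.47 there and 8.35 on CD8α- replicate 1. The part of these transcripts and of this lean in the results was not tested. CD8α+ replicate 2 stood apart in turn on plasmacytoid dendritic cell markers, with a summed log2 level of 79.8 over 11 genes against 66.2 to 69.5 on the other 3. Where the calls in a list moved by over 1.5 times without 1 array, or without CD8α- replicate 2 and CD8α+ replicate 1 together, the counts are given. The second fit leaves 1 array in each knockout group, assumed to vary like the other groups, and each such fit has fewer arrays to test with.

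By limma, 844 of the 8397 genes were higher in CD8α+ cells (10.1%) and 845 lower (10.1%). In all 1689 genes were called (20.1%), and 2889 at an unadjusted p under 0.05. The share called in each list below is to be read against this 20.1%, and its higher or lower calls against 10.1% each. The median difference was 0.0214 on the log2 scale, and 1303 called genes differed by at least 1. Of the called genes 1376 stood at 5 or more on all 4 arrays. Another 101 passed the filter through the CD8α+ arrays alone and 120 through the CD8α- arrays alone, and these had to differ. A fold written as at least marks a gene of this kind. Where a called gene had 2 or more tested probe sets, all of them moved one way for 547 of 591 genes. In whole populations of cells, fewer cells of a type and less RNA per cell cannot be told apart. Of the 221 called genes that were named by rule or listed, 142 kept their calls without each knockout array in turn and 79 lost them without at least 1, and the genes given with full values below were taken mainly from the first kind, with their values known. The calls of Itgax, Kit, Zeb2, Tap2, Cstb, Cd79b, Tlr6, Tlr12, Pirb, Xaf1 and Abca1 were kept so but lost without the 2 arrays with neutrophil transcripts. The count of called genes fell to 994 when CD8α- replicate 1 was left out, to 1014 and 1066 when CD8α+ replicate 1 or replicate 2 was, to 991 when the 2 arrays with neutrophil transcripts were, and to 712 in a fit of the knockout arrays alone.

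**Figure D1:**
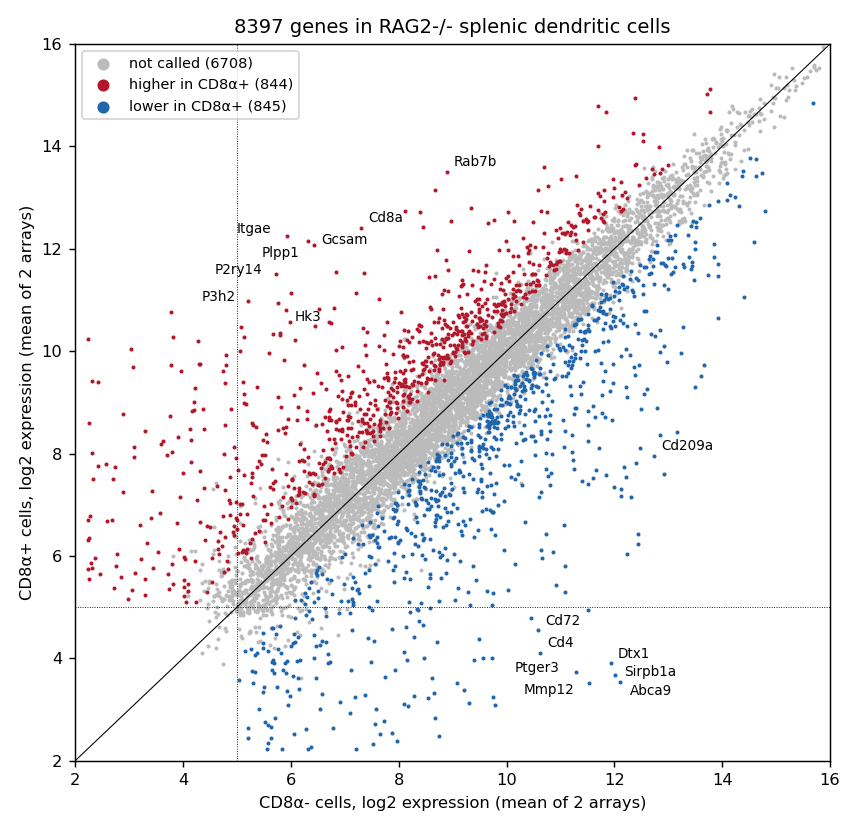
Mean log2 expression of 8397 genes in CD8α- cells (x axis) and CD8α+ cells (y axis) of RAG2-/- mice, each the mean of 2 arrays. Red points are the 844 genes called higher and blue points the 845 called lower in CD8α+ cells, grey points were not called, dotted lines mark log2 5 and the diagonal marks equal levels.

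Among the 12 largest differences towards CD8α+ cells, ranked with values below 5 set to 5, were the genes of an integrin chain, a lipid phosphatase and a nucleotide sugar receptor. Itgae, the αE integrin chain CD103 that binds E-cadherin, stood at 12.12 and 12.36 on the CD8α+ arrays and 5.56 and 6.29 on the CD8α- arrays, a difference of 6.32 (SE 0.32, adjusted p = 7.91e-05). Plpp1, a phosphatase of lipid signals, stood at 12.03 and 12.27 against 5.13 and 7.52, a difference of 5.82 (SE 0.71, adjusted p = 0.00198). The CD8α- replicates of Plpp1 lay more than 2 log2 units apart, with the higher value on replicate 2, the array that leans towards the CD8α+ profile. Mab21l3 was at 10.28 and 10.22 against 2.23 and 2.23, at the lowest value of the arrays in CD8α- cells, at least 38.0-fold higher. P2ry14, a receptor for UDP-sugars released by damaged cells, was at 11.35 and 11.65 against 4.09 and 7.37, and P3h2, which hydroxylates collagen prolines, at 11.10 and 10.84 against 3.72 and 6.70. Both again had their higher CD8α- value on replicate 2. Gcsam, an adaptor first known from germinal centre B cells, showed that gap most among these, at 12.02 and 12.11 against 4.36 and 8.49. Gcsam was no longer called with CD8α+ replicate 1 (then at adjusted p = 0.098) or CD8α+ replicate 2 (0.0929) left out.

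The other genes of that group were the predicted gene Gm36723 (at least 54.4-fold), Ttc39a (at least 39.0-fold), the adhesion gene Hepacam2 (5.19, SE 0.42), the membrane protein gene Itm2a (5.94, SE 0.80, and 2.34 on its other probe set), the sorting nexin gene Snx22 (5.16, SE 0.39) and the mitochondrial sodium-calcium exchanger gene Slc8b1 (5.14, SE 0.58). Among genes at 5 or more on all 4 arrays, the largest differences towards CD8α+ cells added Hk3, the scavenger receptor gene Cd36, the vesicle transport gene Rab7b, the disulfide isomerase gene Pdia5, the ubiquitin ligase gene Rnf180, the semaphorin gene Sema4f and the podosome scaffold gene Sh3pxd2b. Their differences ran from 4.53 for Sh3pxd2b to 4.89 for Hk3. Cd8a itself differed by 5.11 on its brightest probe set, and over its 4 tested probe sets the differences ran from 5.11 to 8.22, the last with both CD8α- arrays at 2.23.

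Towards CD8α- cells the largest differences included a lipid transporter, a matrix protease and surface receptors. Abca9, a lipid transporter, stood at 3.26 and 3.80 on the CD8α+ arrays and 12.17 and 12.06 on the CD8α- arrays, at least 138-fold lower in CD8α+ cells. Sirpb1a, an activating relative of the phagocytosis checkpoint Sirpa, stood at 4.35 and 3.02 against 12.09 and 11.93, at least 129-fold lower. Mmp12, the macrophage elastase, was at 3.55 and 3.48 against 11.85 and 11.21 and Ptger3, a prostaglandin E2 receptor, at 3.74 and 3.74 against 11.55 and 11.03, at least 92.3-fold and at least 78.5-fold lower. These 4 genes were below the filter's level on both CD8α+ arrays and above 11 on both CD8α- arrays.

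Some genes best known from B cells were on the same side. Cd22, a sialic acid-binding inhibitory receptor, was at 7.70 and 5.15 on the CD8α+ arrays and 12.56 and 12.31 on the CD8α- arrays, with a difference of -6.01 (SE 0.71, adjusted p = 0.00177) and of -3.23 on its other probe set. Cd72, another inhibitory receptor, was at 4.14 and 4.96 against 10.80 and 10.37, at least 48.1-fold lower. Cd79b, the β chain of the B cell receptor complex, was at 4.64 and 4.49 against 8.29 and 7.48, at least 7.38-fold lower (adjusted p = 0.00548). The B cell identity genes Cd79a, Pax5 and Ebf1 stayed at or below 2.29 on every knockout array. Another B cell marker, Ighm, was bright in both subsets, at 12.06 and 12.39 against 12.40 and 12.27, and was not called. Ms4a1, the surface molecule CD20, which was not called, had its higher values on the CD8α+ arrays, at 9.69 and 7.89 against 7.07 and 7.08. So had Jchain, the joining chain of secreted antibodies, which did not pass the filter, at 4.87 and 6.12 against 2.23 and 3.31. The summed log2 level of 12 B cell markers was 52.2 to 52.9 on the 4 arrays, and the part of B cells in these differences was not tested.

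Abcb1a, the drug efflux pump P-glycoprotein, differed by -5.78 (SE 0.27, adjusted p = 5.42e-05), Emb, a chaperone of lactate transporters, by -6.20 (SE 0.38, adjusted p = 0.000153), and Bex6 by -6.21 (SE 0.40, adjusted p = 0.000173). Nxpe4 stood at 5.40 and 4.51 on the CD8α+ arrays and 12.03 and 10.998 on the CD8α- arrays. Of genes at 5 or more on all 4 arrays the largest differences towards CD8α- cells added the sialyltransferase gene St8sia6 (-5.32, SE 0.22), the chemokine gene Ccl9 (-5.26, SE 0.47), Mcemp1 (-4.78, SE 0.42), the calcium-binding gene S100a4 (-4.73, SE 0.24) and Rtp4, Clec4a2, Tlr1 and Cd209a, which belong to groups described further on.

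Textbook markers of the lineages followed the sort, which used Cd8a itself. Of 20 tested CD8α+ markers 18 were higher in CD8α+ cells, with 2 not called (90% called, median difference 3.67), and 16 of the 20 stood at 5 or more on all 4 arrays. Over all genes tested the median was 0.0214. Xcr1, the receptor for the chemokine XCL1 that guides contact with CD8 T cells, was at 10.53 and 9.56 on the CD8α+ arrays and 2.72 and 3.36 on the CD8α- arrays, at least 33.0-fold higher. Cd207, the lectin langerin, was at 9.73 and 9.12 against 2.40 and 2.23, at least 21.5-fold higher. Ly75, the endocytic receptor DEC-205, was at 10.32 and 10.42 against 7.86 and 6.98 and Naaa, a lysosomal lipid hydrolase, at 14.67 and 14.92 against 10.97 and 12.44. Cd36, Snx22, Rab7b, Tlr3, Ppt1 and Btla were higher as well, by 1.92 to 5.16. Batf3, a factor this lineage needs, stood at 12.41 and 12.49 against 12.14 and 12.16 and missed the threshold (difference 0.29, SE 0.19, adjusted p = 0.328), as did the cross-presentation gene Wdfy4 (0.40, SE 0.23, adjusted p = 0.27). Fewer were called without each knockout array in turn or without the 2 arrays with neutrophil transcripts, and fewest without CD8α+ replicate 1. The median difference ran from 3.42 to 4.1 over these fits.

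Some of these calls were lost with 1 array left out, and in the 3 genes given here CD8α- replicate 2 lay nearer to the CD8α+ level than replicate 1. Irf8, the lineage factor, stood at 14.82 and 15.08 on the CD8α+ arrays and 11.50 and 13.25 on the CD8α- arrays, a difference of 2.58 (SE 0.56, adjusted p = 0.0202). Cd24a, a surface glycoprotein, stood at 13.87 and 14.15 against 10.58 and 12.81, and the adhesion gene Cadm1 at 12.88 and 12.54 against 7.54 and 9.25. Irf8 was no longer called with CD8α- replicate 1 (then at adjusted p = 0.0537), CD8α+ replicate 1 (0.0827) or CD8α+ replicate 2 (0.0964) left out. Cd24a was no longer called with CD8α+ replicate 1 (0.135) or CD8α+ replicate 2 (0.156) left out. Cadm1 was no longer called with CD8α- replicate 1 (0.0512) or CD8α+ replicate 1 (0.0611) left out. The difference itself stayed close when a CD8α+ array was left out, at 2.71 and 2.45 for Irf8, 2.45 and 2.17 for Cd24a and 4.14 and 4.49 for Cadm1. It moved more with the CD8α- arrays, from 1.70 with replicate 1 left out to 3.45 with replicate 2 left out for Irf8, and from 1.20 to 3.43 for Cd24a.

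Of 18 tested CD8α- markers 14 were lower in CD8α+ cells, with 4 not called (77.8% called, median difference -2.91), and 14 of the 18 stood at 5 or more on all 4 arrays. Irf4, the factor this lineage needs, was at 4.94 and 5.14 on the CD8α+ arrays and 9.78 and 9.68 on the CD8α- arrays, a difference of -4.69 (SE 0.22, adjusted p = 6e-05). Sirpa, which binds CD47 and restrains phagocytosis, was at 8.10 and 7.37 against 12.15 and 12.20, and Esam, an adhesion molecule of the Notch2-dependent cells, at 7.40 and 6.04 against 9.20 and 9.45. Ltb, the lymphotoxin β chain, was at 7.96 and 8.27 against 12.76 and 12.18 and Csf1r, the receptor for the growth factor M-CSF, at 12.88 and 12.61 against 14.74 and 14.84. Both CD8α- values lay above both CD8α+ values for each of these genes. Klf4 varied more, at 6.51 and 8.72 against 10.34 and 11.33. Notch2 (-0.28), Rbpj (0.21), Irf2 (-0.09) and the chemokine receptor gene Ccr2 (-1.17, adjusted p = 0.0616) were not called. Klf4 was no longer called with CD8α- replicate 1 (then at adjusted p = 0.0561), CD8α- replicate 2 (0.0922) or CD8α+ replicate 1 (0.0709) left out. Without the 2 arrays with neutrophil transcripts 9 were called lower, and 10 were called lower without CD8α- replicate 2 alone.

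**Figure D2:**
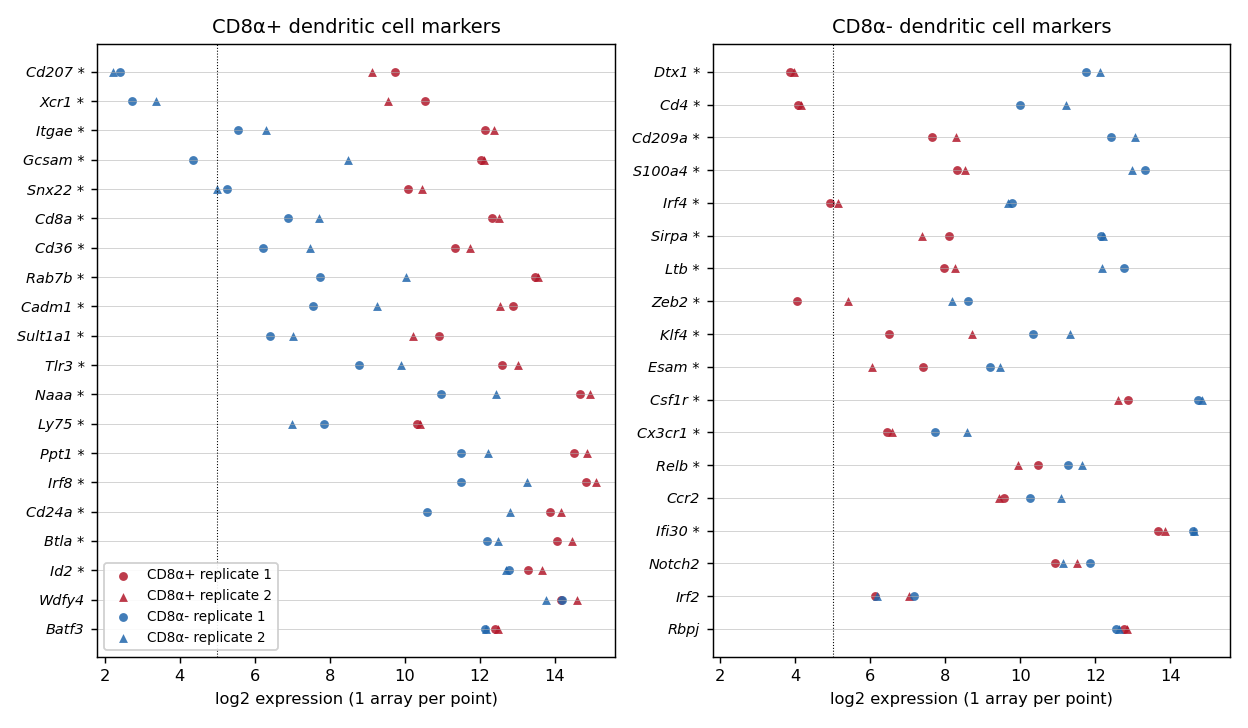
Log2 expression (x axis) of the tested CD8α+ markers (left) and CD8α- markers (right) on each RAG2-/- array, with red for CD8α+ and blue for CD8α- cells, circles for replicate 1 and triangles for replicate 2, an asterisk for a called gene and a dotted line at log2 5. Red points lie right of blue ones for the 18 called CD8α+ markers and left of them for the 14 called CD8α- markers.

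Among 17 tested transcription factors of dendritic cell development 2 were higher in CD8α+ cells and 5 were lower, with 10 not called (41.2% called, median difference -0.28). Calls came to 3 lower without CD8α- replicate 1 or CD8α+ replicate 1, 1 higher and 2 lower without CD8α- replicate 2, 4 lower without CD8α+ replicate 2 and 1 higher and 1 lower without the 2 arrays with neutrophil transcripts. Zeb2, also on the CD8α- marker list, was at 4.05 and 5.41 on the CD8α+ arrays and 8.59 and 8.17 on the CD8α- arrays, a difference of -3.65 (SE 0.56, adjusted p = 0.0051). Id2, an inhibitor of E proteins, was at 13.28 and 13.64 against 12.78 and 12.70 and was called with an adjusted p of 0.0468. Id2 was no longer called with CD8α- replicate 1 (then at adjusted p = 0.118), CD8α- replicate 2 (0.116), CD8α+ replicate 1 (0.0532) or CD8α+ replicate 2 (0.162) left out. The differences of Spi1, the myeloid factor PU.1, Bcl6 and Zbtb46, the marker factor of conventional dendritic cells, were -0.09, 0.20 and 0.15 and were not called. Irf4 and Zeb2 kept their calls without each array in turn.

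Genes shared by both lineages had a median difference smaller in size than that of either lineage's markers. Of 12, all at 5 or more on the 4 arrays, 3 were lower in CD8α+ cells, with 9 not called (25% called, median difference 0.03). Over all genes tested, 20.1% were called and 10.1% were called lower. Refitting called 1 lower without the 2 arrays with neutrophil transcripts. Flt3, the receptor for the growth factor these cells need, was at 13.11 and 13.58 on the CD8α+ arrays and 13.19 and 13.09 on the CD8α- arrays. Itgax, the integrin chain CD11c, differed by -1.09 (SE 0.19, adjusted p = 0.00785) and Kit, the stem cell factor receptor, differed by -1.18 (adjusted p = 0.00394). Ccr7, which guides migration to lymph nodes, was at 11.54 and 10.59 against 9.84 and 9.75 and was not called. Of 7 tested plasmacytoid dendritic cell markers 1 was higher in CD8α+ cells and 1 was lower, with 5 not called (28.6% called, median difference -0.26). The called genes were Ccr9, a gut homing chemokine receptor at 9.54 and 10.45 against 3.68 and 6.44, and Lair1, an inhibitory collagen receptor at 6.16 and 7.55 against 9.85 and 9.61. Siglech, a defining marker of plasmacytoid cells, did not pass the filter and stood at 5.36 on CD8α+ replicate 2 and at 2.25 on the other 3 knockout arrays. Ccr9 was no longer called with CD8α+ replicate 2 (then at adjusted p = 0.0506) left out.

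Paired receptors of myeloid cells, families whose members either restrain or activate the cell, were mainly on the CD8α- side. Of 10 tested receptor and adaptor genes 1 was higher in CD8α+ cells and 9 were lower (100% called, median difference -3.16), against 10.1% lower over all genes. Of the 10, 7 stood at 5 or more on all 4 arrays and 3 passed the filter through the CD8α- arrays alone, so those 3 had to differ. Cd300lb stood at 3.96 and 2.30 on the CD8α+ arrays and 9.22 and 9.38 on the CD8α- arrays, and Cd300ld at 2.47 and 2.63 against 8.06 and 7.68, at least 7.30-fold lower. Cd300lf, which binds phospholipids of dying cells, was at 7.29 and 7.51 against 11.95 and 11.08, a difference of -4.12 (SE 0.34, adjusted p = 0.000412). Pirb, an inhibitory receptor for MHC class I, was at 9.83 and 9.94 against 11.35 and 11.06. Their groups did not overlap. The gene that ran the other way was Treml4, which binds dead cells, at 12.75 and 12.74 against 10.54 and 10.74, a difference of 2.11 (SE 0.23, adjusted p = 0.0012). Tyrobp, the adaptor DAP12 through which the activating members signal, was at 13.39 and 13.65 against 14.36 and 14.40. Tyrobp was no longer called with CD8α- replicate 1 (then at adjusted p = 0.0612), CD8α- replicate 2 (0.0506) or CD8α+ replicate 1 (0.0806) left out. Without the 2 arrays with neutrophil transcripts 1 was called higher and 7 lower.

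Receptors for the constant part of antibodies bind immune complexes for uptake, although the mice make no antibodies of their own. Of the 6 tested, 5 were lower in CD8α+ cells, with 1 not called (83.3% called, median difference -3.22), against 10.1% lower over all genes. Fcer1g, the signalling chain that the activating receptors share, was at 9.01 and 8.75 on the CD8α+ arrays and 12.77 and 12.23 on the CD8α- arrays, a difference of -3.62 (SE 0.31, adjusted p = 0.000505). Fcgr3, a low affinity activating receptor, was at 5.56 and 5.79 against 8.65 and 9.10, a difference of -3.20 (SE 0.22, adjusted p = 0.000209). Fcgr1, the high affinity receptor, was at 2.30 and 2.39 against 5.003 and 6.17, at least 1.5-fold lower. Fcgrt, the neonatal receptor that sorts antibody inside cells, ran the other way at 11.13 and 10.97 against 9.69 and 9.81 and missed the threshold (adjusted p = 0.0535). The activating receptors were thus lower in CD8α+ cells. Fcgr1 was close to the filter's level and passed it through the CD8α- arrays alone, so it had to differ. Fcgr4 was at 5.32 and 5.43 against 9.22 and 8.97 and Fcgr2b, the inhibitory receptor, at 10.96 and 11.18 against 12.30 and 11.70. Fcgr4 was no longer called with CD8α- replicate 1 (then at adjusted p = 0.0718), CD8α+ replicate 1 (0.0743) or CD8α+ replicate 2 (0.064) left out. Fcgr2b was no longer called with CD8α- replicate 1 (0.182), CD8α+ replicate 1 (0.181) or CD8α+ replicate 2 (0.1) left out. The fit called 3 lower without CD8α- replicate 1, CD8α+ replicate 1, CD8α+ replicate 2 or the 2 arrays with neutrophil transcripts. The summed log2 level of 8 monocyte markers, a list that shares Fcgr4 and Treml4 with these receptor lists, was 81.5 and 80.5 against 90.9 and 91.7, and its part in these differences was not tested.

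C-type lectins and other endocytic receptors divided by subset. Of 12 tested 2 were higher in CD8α+ cells and 7 were lower, with 3 not called (75% called, median difference -3.01). Among all genes 20.1% were called. Clec4a2 and Clec4a3, inhibitory lectins of the DCIR group, were at 7.01 and 7.34 on the CD8α+ arrays and 12.27 and 11.99 on the CD8α- arrays for Clec4a2 and 7.78 and 6.91 against 11.98 and 12.01 for Clec4a3. Clec7a, the β-glucan receptor Dectin-1, was at 9.44 and 8.32 against 13.06 and 12.53, a difference of -3.91 (SE 0.38, adjusted p = 0.000769). Cd209a, a relative of human DC-SIGN, was at 7.64 and 8.29 against 12.42 and 13.06. Siglecg, which binds sialic acids, was at 6.74 and 6.11 against 10.53 and 10.92. These 5 genes were brighter on both CD8α- arrays, by 3.91 to 4.95 log2 units. Ly75 and Cd207 were the called lectins of CD8α+ cells. Clec10a, a galactose-type lectin, had a wide spread in CD8α+ cells, at 4.85 and 7.40 against 9.90 and 9.99. Clec10a was no longer called with CD8α- replicate 1 (then at adjusted p = 0.0614) left out.

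The class II genes called were H2-DMb2, H2-Eb2, Rfxap, Rfx5 and Rfxank. Of 14 tested class II chains, chaperones and regulators 1 was higher in CD8α+ cells and 4 were lower, with 9 not called (35.7% called, median difference -0.23). That compares with 20.1% called over all genes. The count of calls became 1 higher and 2 lower without CD8α- replicate 1, CD8α- replicate 2 or CD8α+ replicate 2. The classical chains H2-Aa, H2-Ab1 and H2-Eb1 and the invariant chain Cd74 were among the brightest genes, between 15.08 and 16.04, with differences of -0.27, -0.19, -0.15 and -0.17 and unadjusted 95% intervals of -0.80 to 0.26, -0.65 to 0.27, -0.62 to 0.32 and -0.60 to 0.26. H2-DMb2, a chain of the peptide exchange factor DM, was at 12.02 and 11.66 on the CD8α+ arrays and 13.75 and 13.94 on the CD8α- arrays, a difference of -2.01 (SE 0.22, adjusted p = 0.00122). H2-Eb2, a less abundant class II chain, was at 9.28 and 8.37 against 11.84 and 11.17. Rfxap, a subunit of the factor that binds class II promoters, was higher at 9.81 and 10.06 against 8.74 and 8.53, and its partners Rfx5 (-0.94) and Rfxank (-1.62) were lower, so the 3 subunits did not move together. Rfx5 was no longer called with CD8α- replicate 1 (then at adjusted p = 0.0904), CD8α- replicate 2 (0.0924), CD8α+ replicate 1 (0.111) or CD8α+ replicate 2 (0.103) left out. Rfxank was no longer called with CD8α- replicate 1 (0.103), CD8α- replicate 2 (0.077) or CD8α+ replicate 2 (0.0899) left out. Ciita, the class II master regulator, differed by 0.25 and was not called.

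Lysosomal enzymes that process antigen for class II and their inhibitors were called in opposite directions over the 4 arrays. Of 13 tested 2 were higher in CD8α+ cells and 5 were lower, with 6 not called (53.8% called, median difference -0.58), where the 5 lower genes are enzymes and the 2 higher ones the inhibitors Cst3 and Cstb. Ctse, another enzyme, was called higher without CD8α- replicate 2 (2.56, adjusted p = 0.0397). The calls numbered 3 higher and 3 lower without CD8α- replicate 2, 2 higher and 2 lower without CD8α+ replicate 1 or the 2 arrays with neutrophil transcripts and 2 higher and 3 lower without CD8α+ replicate 2. Ctsa and Ctsc, a carboxypeptidase and a dipeptidyl peptidase, were at 10.17 and 10.53 on the CD8α+ arrays and 12.42 and 12.46 on the CD8α- arrays for Ctsa and 11.60 and 11.70 against 13.45 and 13.15 for Ctsc. Cst3 and Cstb, the inhibitors cystatin C and cystatin B, were higher, Cst3 at 15.02 and 15.24 against 13.72 and 13.84 and Cstb at 12.62 and 12.42 against 11.50 and 11.47. Ctss, the main protease that trims the invariant chain, was at 14.26 and 14.51 against 15.15 and 14.78 and missed the threshold (difference -0.58, SE 0.20, adjusted p = 0.0932). Cybb, the catalytic subunit of the phagosomal NADPH oxidase, was at 8.98 and 9.56 against 12.62 and 12.59, a difference of -3.33 (SE 0.28, adjusted p = 0.000459). Of 6 oxidase subunits 2 were lower in CD8α+ cells, with 4 not called (33.3% called, median difference -0.30) (1 lower without CD8α- replicate 1, CD8α- replicate 2, CD8α+ replicate 1, CD8α+ replicate 2 or the 2 arrays with neutrophil transcripts), and the membrane partner Cyba differed by -0.17. Cybb was thus lower without its partners Cyba, Ncf1 and Ncf4 being called. The other call was Rac2, a GTPase of the complex. Rac2 was no longer called with CD8α- replicate 1 (then at adjusted p = 0.0543), CD8α- replicate 2 (0.0609), CD8α+ replicate 1 (0.065) or CD8α+ replicate 2 (0.0747) left out.

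The class I genes called were Tap1, Tap2 and Psmb9, which supply peptides. Of 18 tested, all at 5 or more on the 4 arrays, 3 were higher in CD8α+ cells, with 15 not called (16.7% called, median difference 0.74), against 20.1% called over all genes. Tap2, a chain of the peptide transporter, was at 10.30 and 10.35 on the CD8α+ arrays and 9.02 and 8.82 on the CD8α- arrays, a difference of 1.41 (SE 0.21, adjusted p = 0.00477), and Psmb9, an immunoproteasome subunit, at 13.44 and 13.29 against 11.85 and 12.10, a difference of 1.39 (SE 0.18, adjusted p = 0.00264). Tap1, the partner chain, differed by 1.10 (SE 0.24, adjusted p = 0.0217). The heavy chain genes H2-K1 (-0.24) and H2-D1 (-0.10) and the light chain B2m (-0.19) were not called. Tap1 was no longer called with CD8α- replicate 2 (then at adjusted p = 0.0717), CD8α+ replicate 1 (0.0928) or CD8α+ replicate 2 (0.0794) left out. Psmb8, Psme1, Nlrc5 and Tapbpl differed by 0.91 to 1.02 with adjusted p between 0.0548 and 0.0748, short of the threshold.

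Signals to T cells went both ways. Of 10 tested costimulatory and coinhibitory genes 2 were higher in CD8α+ cells and 3 were lower, with 5 not called (50% called, median difference -0.25). Refitting called 2 higher and 1 lower without CD8α+ replicate 1, CD8α+ replicate 2 or the 2 arrays with neutrophil transcripts. Cd86, the ligand of CD28, was at 11.99 and 12.32 on the CD8α+ arrays and 10.18 and 9.80 on the CD8α- arrays, a difference of 2.16 (SE 0.22, adjusted p = 0.000883), and Btla, an inhibitory receptor, at 14.07 and 14.44 against 12.19 and 12.48. Cd274, the inhibitory ligand PD-L1, was at 8.21 and 8.35 against 10.79 and 10.69, a difference of -2.46 (SE 0.17, adjusted p = 0.000221). Cd80, which also binds CD28, ran opposite to Cd86 at 7.06 and 7.05 against 8.54 and 8.05. Cd40 and Cd83 differed by -0.44 and 0.58 and were not called. Cd80 was no longer called with CD8α- replicate 1 (then at adjusted p = 0.115), CD8α+ replicate 1 (0.0973) or CD8α+ replicate 2 (0.0907) left out.

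Among 15 tested cytokines and chemokines 6 were higher in CD8α+ cells and 4 were lower, with 5 not called (66.7% called, median difference -0.16). Il12b, a subunit of interleukin-12, which drives type 1 helper T cells, was at 10.27 and 9.59 on the CD8α+ arrays and 4.93 and 4.65 on the CD8α- arrays, at least 30.5-fold higher. Cxcl9 and Cxcl16, which attract activated T cells, were at 12.49 and 12.60 against 8.86 and 9.07 for Cxcl9 and 11.19 and 11.15 against 8.91 and 8.91 for Cxcl16. Ccl22, a ligand of CCR4, was at 9.03 and 7.94 against 4.14 and 4.14, at least 11.2-fold higher. Il12b and Ccl22 passed the filter through the CD8α+ arrays alone, so those 2 had to differ. Ccl9 and Ccl5 went towards CD8α- cells, Ccl9 at 6.55 and 5.07 against 11.37 and 10.79 and Ccl5 at 12.15 and 11.52 against 13.44 and 13.33, and so did Il1b, the inflammasome cytokine, at 10.02 and 10.05 against 12.12 and 12.30. Il12a, the partner subunit of interleukin-12, was at the lowest value on all 4 arrays. Il1b was no longer called with CD8α+ replicate 1 (then at adjusted p = 0.0608) or CD8α+ replicate 2 (0.055) left out.

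Chemokine and lipid guidance receptors split as well. Of 12 tested 4 were higher in CD8α+ cells and 3 were lower, with 5 not called (58.3% called, median difference -0.18), against 20.1% called over all genes. The fit called 2 higher and 3 lower without CD8α+ replicate 2. Ccr6, the receptor for CCL20, was at 2.33 and 3.32 on the CD8α+ arrays and 8.39 and 8.97 on the CD8α- arrays, at least 12.8-fold lower. Gpr183, the oxysterol receptor EBI2 that positions CD8α- cells at the marginal zone bridging channels, was at 7.08 and 8.34 against 11.33 and 11.16, a difference of -3.54 (SE 0.42, adjusted p = 0.00183). Cxcr3, the receptor for CXCL9, was at 11.90 and 12.06 against 7.87 and 9.54, on the CD8α+ side with its ligand gene. Cxcr3 was no longer called with CD8α- replicate 1 (then at adjusted p = 0.0588), CD8α+ replicate 1 (0.0664) or CD8α+ replicate 2 (0.0699) left out. Xcr1, P2ry14 and Ccr9 were the other genes called higher.

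Toll-like receptors had opposite members in each subset. Of 16 receptors, coreceptors and adaptors tested 3 were higher in CD8α+ cells and 6 were lower, with 7 not called (56.2% called, median difference -0.32). Tlr3, the sensor of double-stranded RNA, was at 12.59 and 13.005 on the CD8α+ arrays and 8.77 and 9.90 on the CD8α- arrays, a difference of 3.46 (SE 0.37, adjusted p = 0.0011), and Tlr12, a profilin sensor, at 8.26 and 7.78 against 3.79 and 3.82, at least 8.12-fold higher. Tlr7, the sensor of single-stranded RNA, was at 4.38 and 4.38 against 9.73 and 9.24, at least 22.4-fold lower. Tlr1 and Tlr6, the partners of Tlr2, were at 7.48 and 7.15 against 12.33 and 11.90 for Tlr1 and 5.67 and 5.77 against 7.51 and 7.40 for Tlr6, while Tlr2 itself differed by -0.45 and was not called. The RNA sensors of endosomes thus lay on opposite sides, Tlr3 with CD8α+ and Tlr7 with CD8α- cells. Tlr12 and Tlr7 each passed the filter through the arrays of 1 subset alone, so those 2 had to differ. Without the 2 arrays with neutrophil transcripts 1 was called higher and 2 lower. Tlr4, the receptor for lipopolysaccharide, differed by -0.95 (SE 0.23, adjusted p = 0.0296) and its coreceptor gene Cd14 by -1.33 (SE 0.35, adjusted p = 0.0418). Tlr4 was no longer called with CD8α- replicate 2 (then at adjusted p = 0.1) or CD8α+ replicate 2 (0.121) left out. Cd14 was no longer called with CD8α- replicate 2 (0.0709), CD8α+ replicate 1 (0.168) or CD8α+ replicate 2 (0.107) left out. The count of calls became 2 higher and 3 lower without CD8α+ replicate 2.

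Cytosolic sensors were lower in CD8α+ cells or not called. Of 11 tested 5 were lower in CD8α+ cells, with 6 not called (45.5% called, median difference -0.63), and the 5 calls were kept without each knockout array in turn and without the 2 arrays with neutrophil transcripts. Ddx58, the RNA sensor RIG-I, was at 4.81 and 3.85 on the CD8α+ arrays and 8.90 and 8.52 on the CD8α- arrays, at least 13.1-fold lower. Ifih1, the RNA sensor MDA5, was at 10.49 and 10.42 against 12.14 and 11.75, and Sting1, the adaptor of DNA sensing, at 8.87 and 8.61 against 10.77 and 10.66. Nod1, a sensor of bacterial wall fragments, and Casp1, the inflammasome protease, differed by -2.08 (SE 0.26, adjusted p = 0.00241) and -2.07 (SE 0.29, adjusted p = 0.00334). The adaptors Mavs (0.23) and Pycard (0.02) and the DNA sensor Cgas (-0.55) were not called.

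Many genes induced by type I interferon were lower in CD8α+ cells. These genes are switched on when the interferon receptor signals to the nucleus, where a DNA element with a repeated GAAA core is bound, and many encode antiviral proteins. Of 25 tested receptor, signalling and response genes 14 were lower in CD8α+ cells, with 11 not called (56% called, median difference -0.97), against 10.1% lower over all genes. Of the 25, 20 stood at 5 or more on all 4 arrays. Another 3, Oas1a, Ifit1 and Ddx60, passed the filter through the CD8α- arrays alone, so those 3 had to differ. Oas2 and Oas1a, enzymes that activate RNase L, were at 5.17 and 4.41 on the CD8α+ arrays and 10.90 and 10.00 on the CD8α- arrays for Oas2 and 4.08 and 2.95 against 9.37 and 8.79 for Oas1a, and Ifit1 and Ifit3, which bind viral RNA, at 2.35 and 2.32 against 8.37 and 6.69 for Ifit1 and 6.52 and 5.70 against 11.04 and 10.25 for Ifit3. Rtp4, an inducible chaperone, was at 7.25 and 7.08 against 12.80 and 11.81, and the helicase gene Ddx60 at 3.05 and 2.97 against 7.79 and 7.36. Oas2, Ifit3 and Rtp4 differed by -5.66, -4.53 and -5.14, and Oas1a, Ifit1 and Ddx60 were at least 16.9-fold, at least 5.77-fold and at least 5.98-fold lower. The adjusted p was at most 0.00104 for these 6 genes, and in each of them CD8α- replicate 1 gave the higher of the 2 CD8α- values. Bst2, which tethers viruses, lay on the other side at 8.10 and 9.06 against 6.93 and 7.68 and was not called (adjusted p = 0.0776). The receptor and factors changed less. Of the receptor chains, Ifnar2 was called lower (-0.73, adjusted p = 0.0407), while Ifnar1 differed by 0.13. Irf9 differed by 0.09, Irf7 by 0.14 and Stat2 by -0.85 (adjusted p = 0.074). Ifnar1, Irf9, Irf7 and Stat2 were not called.

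**Figure D3:**
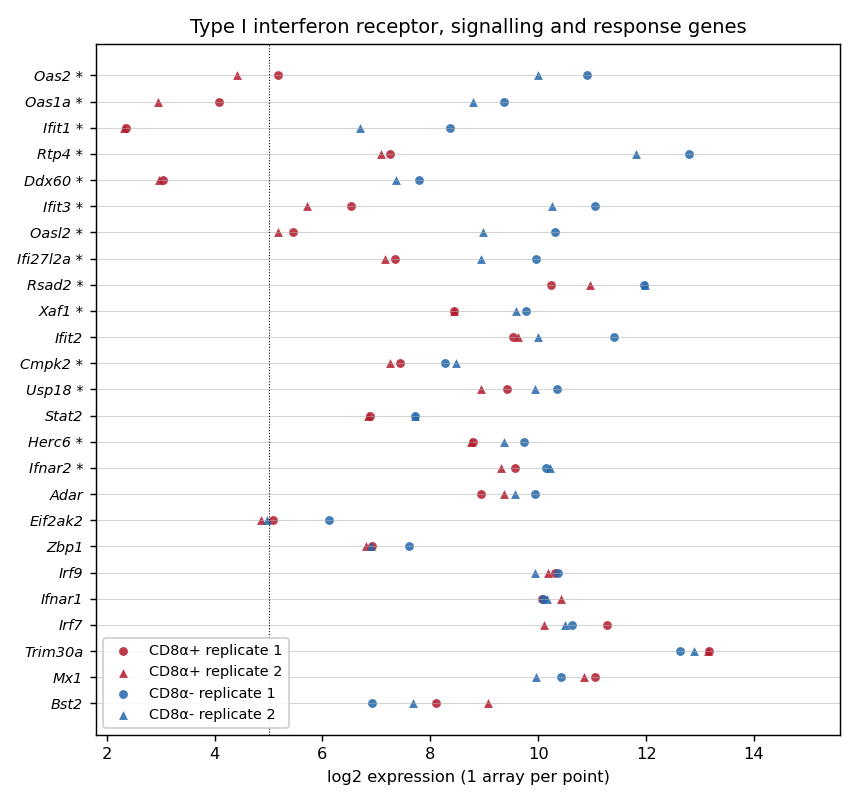
Log2 expression (x axis) of the 25 tested genes of type I interferon signalling and response on each RAG2-/- array, ordered by the difference between the subsets, with symbols as in the plot of lineage markers. From Oas2 at -5.66 to Ddx60, Ifit3 and Oasl2 the red CD8α+ points lie far left of the blue ones, while Bst2, at 1.28, lies at the other end.

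The promoters of 4 of these genes are shown because each holds 2 copies of the repeated core, with Bst2 beside them as a list gene that holds 2 copies and was not called. The stretches come from RefSeq windows on GRCm38.p6, written 5′ to 3′ on the gene's strand, and end before the transcription start. Capitals mark GAAANNGAAA or its reverse complement TTTCNNTTTC, and overlapping copies run together.
Ifit1, chr19:34640765-34640833 on the plus strand: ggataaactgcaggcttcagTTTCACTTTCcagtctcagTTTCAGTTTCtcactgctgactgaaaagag
Ifit3, chr19:34583353-34583436 on the plus strand: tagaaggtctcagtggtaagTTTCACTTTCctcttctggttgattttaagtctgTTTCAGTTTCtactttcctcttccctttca
Oas1a, chr5:120907526-120907565 on the minus strand: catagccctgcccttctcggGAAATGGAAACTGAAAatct
Ddx60, chr8:61928014-61928086 on the plus strand: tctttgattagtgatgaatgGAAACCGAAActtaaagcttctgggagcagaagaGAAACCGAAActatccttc
Bst2, chr8:71537567-71537622 on the minus strand: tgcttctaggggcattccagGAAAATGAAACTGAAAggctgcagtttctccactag
Over the full windows, from 250 bases before to 50 after the start, the motif lay on either strand in 3.99% of 27025 symbols, in 2.07% of 676 genes called higher, in 8.51% of 670 called lower and in 3.58% of 5566 not called. Among the interferon genes it lay in 5 of 10 that were called lower and had a window, and in 4 of 9 that were not called. Oasl2, at 5.45 and 5.18 on the CD8α+ arrays and 10.30 and 8.97 on the CD8α- arrays, held none in its window. Rtp4 and Oas2 are named here without a window. A match is a description of the letters and not a bound site.

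The calls of Oas1a, Oas2, Ifit1, Ifit3, Oasl2, Rtp4, Xaf1 and Ddx60 were kept without each knockout array in turn. Those of Usp18, Rsad2, Ifi27l2a, Herc6, Cmpk2 and Ifnar2, with differences of -2.20 to -0.73, were lost without at least 1 of them. Usp18 was no longer called with CD8α- replicate 1 (then at adjusted p = 0.136) or CD8α+ replicate 2 (0.124) left out. Rsad2 was no longer called with CD8α- replicate 1 (0.0736), CD8α- replicate 2 (0.0569) or CD8α+ replicate 1 (0.0754) left out. Ifi27l2a was no longer called with CD8α+ replicate 2 (0.0506) left out. The calls numbered 9 lower without CD8α- replicate 1 or CD8α+ replicate 2. Without the 2 arrays with neutrophil transcripts 11 was called lower.

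Genes induced by interferon-γ were split. Of 14 tested 3 were higher in CD8α+ cells and 5 were lower, with 6 not called (57.1% called, median difference -0.58). Gbp7 and Gbp3, guanylate-binding proteins of host defence, were at 4.80 and 5.41 on the CD8α+ arrays and 8.42 and 7.96 on the CD8α- arrays for Gbp7 and 7.37 and 7.17 against 8.71 and 8.69 for Gbp3. Cxcl9, described above, Ido1, which degrades tryptophan, at 5.11 and 5.62 against 2.93 and 2.53, and Iigp1, an immunity-related GTPase, at 5.91 and 6.01 against 4.56 and 4.50, went the other way. The receptor chains Ifngr1 (0.79) and Ifngr2 (0.27) were not called. Ido1 and Iigp1 passed the filter through the CD8α+ arrays alone, so those 2 had to differ. Members of this list thus lay on both sides, with Cxcl9 the higher one that stood at 5 or more on all 4 arrays.

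Of 16 NF-κB subunits, inhibitors and targets 2 were higher in CD8α+ cells and 6 were lower, with 8 not called (50% called, median difference -0.62). Calls came to 5 lower without CD8α- replicate 1, 4 lower without CD8α+ replicate 1 and 3 lower without the 2 arrays with neutrophil transcripts. Nfkbiz, a nuclear cofactor that NF-κB induces, was at 9.15 and 9.45 on the CD8α+ arrays and 12.34 and 12.10 on the CD8α- arrays, a difference of -2.92 (SE 0.26, adjusted p = 0.000544), and the inhibitor gene Nfkbie differed by -1.09 (SE 0.17, adjusted p = 0.00485). The subunit genes Rela (-0.11), Rel (-0.48) and Nfkb2 (-0.92) were not called, whereas Relb was lower at 10.47 and 9.95 against 11.28 and 11.65. Relb was no longer called with CD8α- replicate 2 (then at adjusted p = 0.0654) or CD8α+ replicate 2 (0.0789) left out. In the Notch list of 13, 1 was higher in CD8α+ cells and 4 were lower, with 8 not called (38.5% called, median difference -0.52). Dtx1, a ligase that Notch induces, was at 3.85 and 3.97 against 11.74 and 12.13, at least 122-fold lower. Tnfsf14, the lymphotoxin family ligand LIGHT, was at 2.28 and 2.28 against 6.77 and 5.97. Dtx1 and Tnfsf14 passed the filter through the CD8α- arrays alone, so those 2 had to differ. Notch4 ran opposite at 10.84 and 10.85 against 6.57 and 7.02, a difference of 4.04 (SE 0.27, adjusted p = 0.000186), and Notch1 (0.39) and Hes1 (0.03), a common Notch target, were not called.

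Wnt and TGF-β pathway genes were mostly on the CD8α+ side where called. Of 15 tested 6 were higher in CD8α+ cells and 2 were lower, with 7 not called (53.3% called, median difference 0.09). Dkk3, a secreted Wnt modulator, was at 9.38 and 9.43 on the CD8α+ arrays and 2.63 and 2.23 on the CD8α- arrays, at least 21.2-fold higher. Igf2r, a lysosomal sorting receptor that binds latent TGF-β, was at 8.62 and 8.92 against 2.50 and 3.27, at least 13.7-fold higher. Dkk3 and Igf2r passed the filter through the CD8α+ arrays alone, so those 2 had to differ. The Wnt receptor gene Fzd1 was at 10.62 and 10.34 against 3.65 and 6.51, and Fzd5 at 6.14 and 6.66 against 4.80 and 5.07. Acvrl1, a type I receptor of the TGF-β family, was at 8.88 and 8.93 against 5.91 and 6.34. Smad7, which inhibits that pathway, was at 6.47 and 6.19 against 8.46 and 8.69, lower in CD8α+ cells. The shared effector Ctnnb1 differed by 0.09 and was not called.

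Prostaglandin and leukotriene genes were divided among 9 tested, of which 3 were higher in CD8α+ cells and 3 were lower, with 3 not called (66.7% called, median difference -0.02). The prostaglandin E2 receptors lay on opposite sides. Ptger2 was at 8.55 and 9.15 on the CD8α+ arrays and 3.06 and 5.34 on the CD8α- arrays, Ptger3, described above, was near background in CD8α+ cells, and Ptger4 differed by 0.51 and was not called. Ptgis, which makes prostacyclin, was at 9.93 and 9.56 against 5.50 and 3.13, and Lta4h, which makes leukotriene B4, at 10.54 and 10.88 against 12.16 and 12.17.

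Of 12 tested proteases and inhibitors 4 were higher in CD8α+ cells and 5 were lower, with 3 not called (75% called, median difference -0.30). Refitting called 3 higher and 3 lower without CD8α- replicate 1 or CD8α+ replicate 2. St14, the membrane protease matriptase, was at 2.40 and 2.40 on the CD8α+ arrays and 7.85 and 8.09 on the CD8α- arrays, at least 7.84-fold lower, and Adamdec1 was at 5.93 and 4.61 against 9.80 and 9.69. Serpinb6b and Serpinb9, inhibitors of serine proteases including granzymes, were higher, at 12.33 and 12.52 against 8.44 and 8.48 for Serpinb6b and 11.27 and 11.62 against 8.05 and 9.09 for Serpinb9. St14, Adamdec1 and Mmp12 were thus on the CD8α- side and these inhibitors on the CD8α+ side. St14 and Mmp12 passed the filter through the CD8α- arrays alone, so those 2 had to differ. Mmp9, a gelatinase, had the widest spread, at 6.44 and 3.84 against 8.45 and 9.62. Mmp9 was no longer called with CD8α- replicate 1 (then at adjusted p = 0.0519), CD8α- replicate 2 (0.0848) or CD8α+ replicate 2 (0.0591) left out. Of 17 integrins and adhesion partners 6 were higher in CD8α+ cells and 3 were lower, with 8 not called (52.9% called, median difference 0.83), with Itgae at the top and Itga6 at 7.58 and 6.61 against 4.22 and 4.29. The chains Itgb7, which pairs with Itgae, Itgb2 and Itgav differed by -0.38, -0.39 and 0.11 and were not called. The fit called 3 higher and 3 lower without CD8α- replicate 1, 2 higher and 2 lower without CD8α+ replicate 1 and 4 higher and 1 lower without the 2 arrays with neutrophil transcripts.

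Of 19 tested cell cycle genes 2 were higher in CD8α+ cells and 2 were lower, with 15 not called (21.1% called, median difference 0.14), close to the 20.1% called over all genes. The count of calls became 2 lower without CD8α- replicate 1 or CD8α+ replicate 1, 5 higher and 2 lower without CD8α- replicate 2 and 4 higher and 2 lower without the 2 arrays with neutrophil transcripts. The cyclins Ccnd1 and Ccnd2, which drive entry into the cycle, were lower, at 11.65 and 11.84 on the CD8α+ arrays and 13.19 and 13.70 on the CD8α- arrays for Ccnd1 and 8.05 and 7.33 against 12.06 and 11.28 for Ccnd2. The proliferation marker Mki67 was at 10.79 and 11.17 against 10.80 and 11.32 and was not called, and Pcna, Mcm2 and Top2a differed by 0.14, 0.31 and -0.46. Of 9 Bcl2 family genes 2 were higher in CD8α+ cells and 2 were lower, with 5 not called (44.4% called, median difference 0.22). The death inducer gene Bad differed by 1.12 (SE 0.22, adjusted p = 0.0132) and Bcl2l11, another death inducer, by 1.29 (SE 0.34, adjusted p = 0.0387). Bad was no longer called with CD8α+ replicate 1 (then at adjusted p = 0.0721) left out. Bcl2l11 was no longer called with CD8α- replicate 1 (0.129), CD8α- replicate 2 (0.104), CD8α+ replicate 1 (0.0794) or CD8α+ replicate 2 (0.158) left out. The calls numbered 1 higher without CD8α- replicate 1 or CD8α+ replicate 2, 2 higher without CD8α- replicate 2 and 0 without CD8α+ replicate 1 or the 2 arrays with neutrophil transcripts. Of 18 immediate early genes 4 were higher in CD8α+ cells and 2 were lower, with 12 not called (33.3% called, median difference 0.18). Calls came to 1 higher and 1 lower without CD8α- replicate 1 or CD8α+ replicate 1 and 2 higher and 1 lower without the 2 arrays with neutrophil transcripts. Klf2 was at 10.50 and 9.85 against 8.47 and 8.54 and Fosl2 at 5.44 and 6.89 against 8.57 and 9.17, while Fos (2.13), Jun (-0.14) and Egr1 (1.17) were not called. Of 9 clock genes 3 were lower in CD8α+ cells, with 6 not called (33.3% called, median difference -0.51). Refitting called 1 lower without CD8α- replicate 1 or CD8α+ replicate 2. Bhlhe40, a repressor, was at 6.74 and 6.96 against 8.72 and 9.23.

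Glycolysis genes were called in 1 direction. Of 13 tested glycolysis genes, all at 5 or more on the 4 arrays, 6 were higher in CD8α+ cells, with 7 not called (46.2% called, median difference 0.85), against 10.1% higher over all genes. Hk3, a hexokinase of myeloid cells, was at 10.86 and 10.76 on the CD8α+ arrays and 5.29 and 6.53 on the CD8α- arrays, a difference of 4.89 (SE 0.41, adjusted p = 0.000433), while Hk1 (-0.84) and Hk2 (-0.71) were not called. Pfkp, a phosphofructokinase, was at 11.45 and 11.94 against 9.59 and 9.64 and Pgk1 at 13.45 and 13.87 against 12.24 and 12.55. Tpi1, Pgam1 and Ldha were higher by 1.004, 0.97 and 0.86. Tpi1 was no longer called with CD8α- replicate 1 (then at adjusted p = 0.0686), CD8α+ replicate 1 (0.0785) or CD8α+ replicate 2 (0.0623) left out. Pgam1 was no longer called with CD8α- replicate 1 (0.101), CD8α+ replicate 1 (0.0751) or CD8α+ replicate 2 (0.0883) left out. Ldha was no longer called with CD8α- replicate 1 (0.0904), CD8α+ replicate 1 (0.0882) or CD8α+ replicate 2 (0.061) left out. The fit called 3 higher without CD8α- replicate 1, CD8α+ replicate 1 or CD8α+ replicate 2.

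Of 22 respiratory chain subunits 1 was higher in CD8α+ cells, with 21 not called (4.55% called, median difference 0.49), although 20 of the 22 differences lay above 0, against 10 of 13 in glycolysis. The count of calls became 0 without CD8α- replicate 1 or CD8α+ replicate 1 and 5 higher without CD8α- replicate 2. Of 15 sterol genes 2 were higher in CD8α+ cells and 1 was lower, with 12 not called (20% called, median difference 0.63). The calls numbered 1 lower without CD8α- replicate 1, CD8α- replicate 2 or CD8α+ replicate 2 and 4 higher and 1 lower without CD8α+ replicate 1. Abca1, which exports cholesterol, was at 4.93 and 5.89 on the CD8α+ arrays and 7.20 and 7.71 on the CD8α- arrays. The synthesis genes Hmgcs1 (0.62) and Idi1 (1.18) were not called, with higher readings on CD8α+ replicate 2 than on replicate 1. Of 17 unfolded protein response genes 2 were higher in CD8α+ cells, with 15 not called (11.8% called, median difference 0.38), the called ones being Sdf2l1 (1.77) and Manf (1.11). Calls came to 0 without CD8α- replicate 1 or CD8α+ replicate 2, 3 higher and 1 lower without CD8α- replicate 2 and 4 higher without the 2 arrays with neutrophil transcripts. Sdf2l1 was no longer called with CD8α- replicate 1 (then at adjusted p = 0.13) or CD8α+ replicate 2 (0.0684) left out. Manf was no longer called with CD8α- replicate 1 (0.154) or CD8α+ replicate 2 (0.146) left out. Of 12 ribosomal protein genes 0 were called (0% called, median difference 0.03) by limma, with 0 at an unadjusted p under 0.05 and differences between -0.25 and 0.35.

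**Figure D4:**
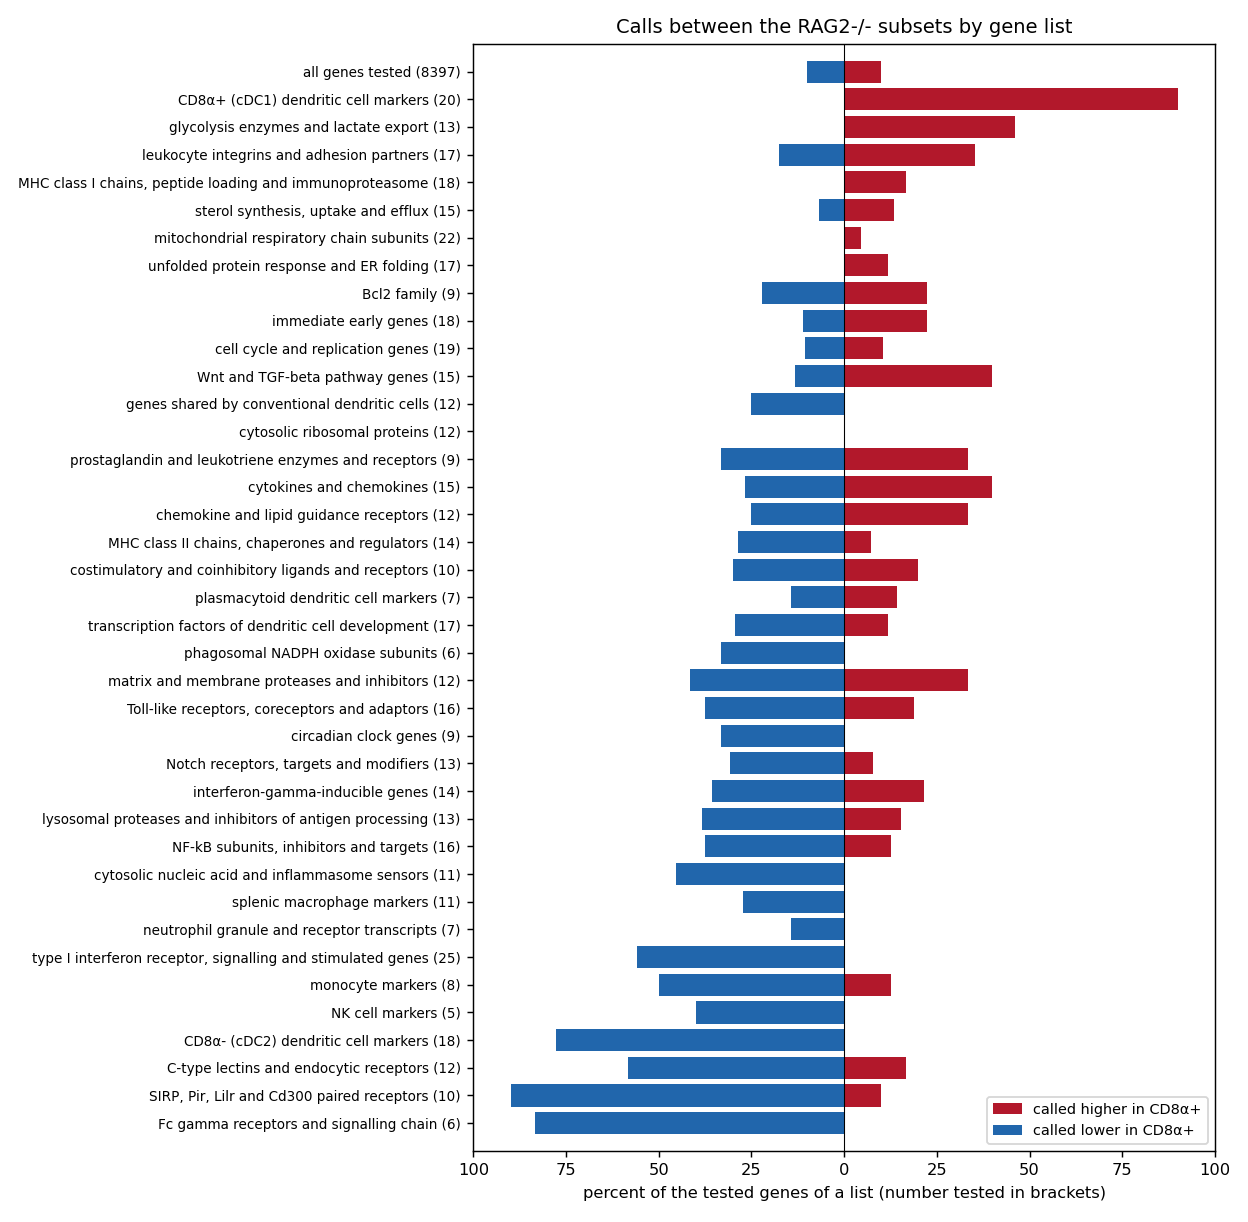
Percent of the tested genes of each list (x axis) called higher (red, to the right) or lower (blue, to the left) in CD8α+ cells of RAG2-/- mice, for lists with at least 5 tested genes, ordered by their median difference, with all 8397 genes in the top bar. CD8α+ markers (18 of 20 higher) and paired receptors (9 of 10 lower) hold the longest bars.

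Markers of other cells differed between the sorts in some genes. Of 11 tested splenic macrophage markers 3 were lower in CD8α+ cells, with 8 not called (27.3% called, median difference -0.73) (1 lower without CD8α- replicate 1, CD8α- replicate 2 or CD8α+ replicate 2), led by Adgre1, the surface molecule F4/80, at 9.07 and 9.13 on the CD8α+ arrays and 12.36 and 12.11 on the CD8α- arrays. Their summed log2 level over 15 genes was 111 and 104 against 118 and 122, with Marco and Timd4 at the lowest value throughout. Of 8 monocyte markers 1 was higher in CD8α+ cells and 4 were lower, with 3 not called (62.5% called, median difference -1.05) (1 higher and 2 lower without CD8α+ replicate 1, CD8α+ replicate 2 or the 2 arrays with neutrophil transcripts), among them Ms4a4c at 8.75 and 7.96 against 13.23 and 12.48, and the called genes were lower apart from Treml4. The part of these cells in the differences of Fc receptors and lectins was not tested. Of 5 natural killer markers 2 were lower in CD8α+ cells, with 3 not called (40% called, median difference -1.11), with Klrd1 at 10.18 and 10.77 against 13.47 and 13.06 and Tbx21, the factor T-bet, at 3.01 and 3.29 against 5.97 and 7.85. Of 7 neutrophil transcripts 1 was lower in CD8α+ cells, with 6 not called (14.3% called, median difference -0.81). The called one, Csf3r, the G-CSF receptor, stood at 4.89 and 4.89 against 6.03 and 8.15. Csf3r was no longer called with CD8α+ replicate 1 (then at adjusted p = 0.154) or CD8α+ replicate 2 (0.139) left out. Of 3 tested B cell markers 1 was lower in CD8α+ cells, with 2 not called (33.3% called, median difference -0.11). The count of calls became 1 higher and 1 lower without CD8α+ replicate 2 and 0 without the 2 arrays with neutrophil transcripts. In the T cell list only Cd5 passed the filter, at 3.78 and 5.34 against 7.36 and 6.90, and the receptor chains Cd3d, Cd3e and Cd3g stayed at or below 3.002. Cd5 was no longer called with CD8α- replicate 1 (then at adjusted p = 0.064) left out. Of erythroid, platelet, mast and stromal markers, 2 were tested and 0 were called by limma, with 0 at an unadjusted p under 0.05. The calls numbered 1 higher without the 2 arrays with neutrophil transcripts.

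The knockout difference was then set against that of wild type arrays by the interaction of genotype and subset, in which an offset shared by all arrays of a genotype cancels. By limma 1 of 13714 probe sets (0.00729%) and so 1 of 8397 genes was called (0.0119%), and 559 had an unadjusted p under 0.05. The gene was Cd209b, the lectin SIGN-R1, known as an uptake receptor of marginal zone macrophages that binds bacterial polysaccharides. In knockout cells it stood at 2.23 and 2.24 on the CD8α+ arrays and 7.31 and 7.12 on the CD8α- arrays, and on the 4 wild type arrays between 2.30 and 2.33. The interaction was -4.97, adjusted p = 0.00183. The knockout CD8α- arrays were thus the 2 of the 8 arrays on which this transcript stood above 5. It passed the filter through these 2 arrays alone, so it had to differ between the knockout subsets. Among other macrophage markers, Marco, also of marginal zone macrophages, was at the lowest value on all 4 knockout arrays, while C1qc, a complement chain, ran from 6.08 to 8.32 there and from 2.08 to 2.57 in wild type. Cd163, a haemoglobin scavenger receptor, ran from 6.68 to 7.99 and from 3.40 to 4.19. The summed log2 level of 15 macrophage markers was 104 to 122 on the knockout arrays and 77.2 to 86.8 on the wild type arrays, and its part in the interaction of Cd209b was not tested. The call of Cd209b was lost without wild type CD8α- replicate 1 (adjusted p = 0.0519) or replicate 2 (0.0522). Over the alternative settings between 0 and 17 genes were called for the interaction.

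The deposited values of the genotypes differ at the low end. The knockout arrays share a lowest value of 2.23, held by 18217 to 18893 probe sets each, and the wild type arrays do not. Low readings are therefore not alike in the 2 sets, and the part of this in the interaction was not tested. Some values above 2.23 were also repeated, such as Pou2af1 at 3.90 on every knockout array and Ptger3 at 3.74 on both CD8α+ arrays. Cxcl16 and Ccl22 differed by the same 2.26 and 4.34 whichever knockout CD8α- array was left out. A repeated value has no spread, and its part in the p-values was not tested. Of the genes tested, 3 were called in opposite directions, which were noted after their values were seen. Fcgr2b differed by -0.93 in the knockout and 2.08 in wild type (interaction -3.00, adjusted p = 0.0745). Tlr4 differed by -0.95 and 0.86 (interaction -1.81, adjusted p = 0.199) and B4galt4, a galactosyltransferase gene, by -0.93 and 0.97 (interaction -1.90, adjusted p = 0.205). None of the 3 interactions passed the threshold.

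In the Fc receptor list the knockout median was -3.22 and the wild type median -0.21, with 5 and 1 genes called lower, against 7.1% called lower over all genes in wild type. Fcgr1 and Fcgr3 had wild type differences of 0.00 and -0.42, with an interaction of -3.24, adjusted p = 0.122 for Fcgr1 and of -2.79, adjusted p = 0.0745 for Fcgr3. Both lay below 5 on all wild type arrays, and Fcgr1 passed the filter through the knockout CD8α- arrays alone. Irf4 had -4.69 in the knockout and -2.51 in wild type (interaction -2.18, adjusted p = 0.0991) and Dtx1 -8.03 and -4.89 (interaction -3.14, adjusted p = 0.0606). The CD8α+ values of Dtx1 in the knockout lay below 5. These 4 interactions were not called. The medians in knockout and wild type were -3.01 and -0.97 for lectins, -1.05 and -0.24 for monocyte markers, 3.67 and 4.31 for CD8α+ markers, -2.91 and -2.23 for CD8α- markers, -0.97 and -1.14 for interferon genes and 0.74 and 0.74 for class I presentation. The lists' medians were not tested between the genotypes.

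**Figure D5:**
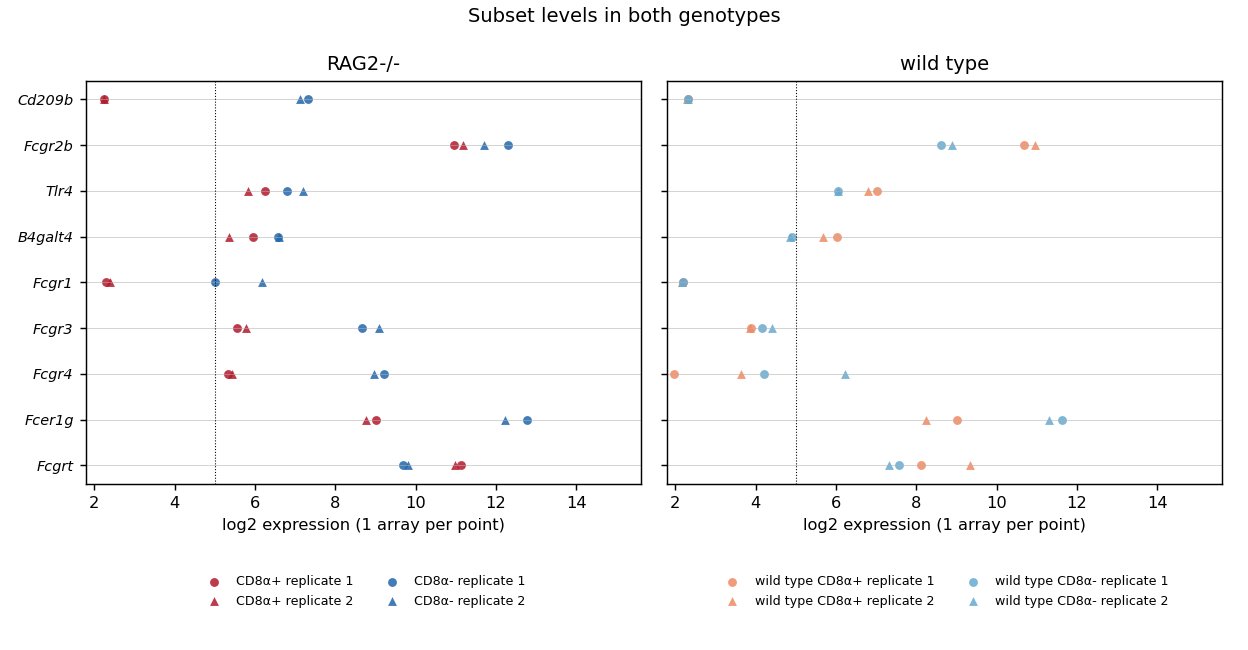
Log2 expression (x axis) of Cd209b, the 3 genes called in opposite directions and the Fc receptors on the RAG2-/- arrays (left) and the wild type arrays (right), with circles for replicate 1, triangles for replicate 2 and a dotted line at log2 5. Cd209b lies at 7.31 and 7.12 on the knockout CD8α- arrays and below 2.5 on the other 6 arrays.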

How the data were processed

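RNA of sorted splenic dendritic cells was hybridised to 8 Affymetrix arrays, 2 in each of 4 groups. The deposited table holds log2 values that the authors made with GCRMA, per the submitters' processing notes, which name affy as well for the 4 wild type arrays and give no version. These values have a common floor on the knockout arrays and not on the wild type arrays, and whether both genotypes were normalized together is not given in the sources used here. No further scaling was applied. Probe sets with 1 gene symbol at log2 5 or more on at least 2 of the 4 knockout arrays were fitted in R 4.3.3 with limma 3.58.1 (lmFit and eBayes, 4 groups, 4 residual degrees of freedom), and p-values were adjusted by Benjamini-Hochberg over all 13714. Of 45101 probe sets, 34945 had 1 symbol, 932 several and 9160 none, and 64 were controls. The precision is limited by having only 2 arrays in each group.

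The genes named by rule were the 12 largest called differences in each direction, without overlap between groups and with values below 5 set to 5. The rule added the same 12 among genes at 5 or more on all 4 arrays, genes called for the interaction, Rag1, Rag2, Cd8a, Cd4 and the members of 41 lists, of which 457 of 660 were tested. The comparison and the lists were chosen with earlier results of these data known, and the genes shown in full were picked with their values seen. List genes were counted, not tested as sets, and some belong to several lists. Promoter windows of RefSeq genes (GRCm38.p6) were searched on both strands. The fit was checked on simulated data. The replicate numbers were not taken as pairs, since deviations of same-numbered knockout arrays correlated at -0.185 and those of wild type arrays at 0.00166. The alternatives were other filters, normalizations, floors, probe set rules and moderation, the knockout arrays alone, array weights, a replicate block and leaving out arrays. The fits without the 2 arrays with neutrophil transcripts and with crossed replicate numbers were added after the data were seen. Figures were drawn with Python 3.11.15, pandas 2.3.3, numpy 2.4.6 and matplotlib 3.10.9.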

Additional observations from a re-analysis of the deposited data

Results flagged for a closer look

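Cd209b was the 1 gene called for the interaction of genotype and subset by limma (-4.97, adjusted p = 0.00183). Over all genes tested, 559 had an unadjusted p under 0.05 for the interaction, so genes not called were not shown to be alike. Cd209b passed the filter through the knockout CD8α- arrays alone, so it had to differ in the knockout. Its call was lost without either wild type CD8α- array. It was lower in CD8α+ than in CD8α- cells by a fitted difference of -4.98 in the knockout, at least 4.65-fold against a level of log2 5, and was below log2 5 on all 4 wild type arrays.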

How the results depend on the processing

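Against 1689 called genes, 712 were called in a fit of the knockout arrays alone and 1035 with no filter on low values. Leaving out 1 knockout array gave 994 to 1600 genes, and leaving out the 2 arrays with neutrophil transcripts gave 991. Of 199 called list genes, 110 and 122 were called in the fit of knockout arrays alone and with no filter, and 141 to 187 were called without 1 array. For the interaction, 17 genes were called with no filter and with 1 brightest probe set per gene, 12 with a filter at log2 7, 5 with the filter over all 8 arrays, 3 with median centring or an offset of 16, 6 with values below 5 set to 5, 13 with the mean of probe sets and 2 with limma-trend. It had 0 to 4 genes without 1 array and 6 without the 2 arrays with neutrophil transcripts. The labels do not state whether the same replicate numbers pair these arrays. With a replicate block 1123 genes were called for the knockout difference, 160 list genes, and 0 for the interaction, where Cd209b had an adjusted p of 0.148, and the crossed pairing called 1542 genes. Quantile normalization, median centring, the offset, the floor, the stricter filters, the probe set rules, array weights and limma-trend kept the knockout count between 1322 and 2022. The difference of Ngp, not called, was turned to 1.22 without the 2 arrays with neutrophil transcripts. The arrays left then were CD8α+ replicate 2 at 4.24 and CD8α- replicate 1 at 3.03, both below log2 5. The cause of these shifts was not tested.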
